A study of Homo sapiens with 6 samples.

Results

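Replication-dependent histone genes were compared between SHP2 knockdown and control melanoma xenografts. The set comprised 52 genes of 24494 distinct symbols in the array table, and was taken by name: rows with 1 gene symbol beginning with HIST1H, HIST2H or HIST3H, without symbols that end as pseudogenes, and with the row of the highest mean standing for each gene. No HIST4H gene had a row of its own. The set held 6 genes of the linker histone H1, 13 of H2A, 16 of H2B, 11 of H3 and 6 of H4. Of these, 2 H2B members, HIST2H2BA and HIST2H2BC, are described as pseudogenes by the table although their symbols do not show it.

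The knockdown group was 3 subcutaneous tumours of 1205Lu, a human line from metastatic melanoma, that carried a short hairpin RNA against SHP2, and the control group was 3 tumours of the same line with a non-target hairpin. All 6 tumours grew for about 6 weeks in NSG mice, which lack mature lymphocytes and natural killer cells but keep other host cells. Whether a hairpin line was 1 clone, and whether each tumour came from its own mouse, is not given in the sources used here, and p-values therefore cover only the scatter of these 6 samples. Total RNA of the tumours was measured on arrays by an Affymetrix protocol, so fewer cells of a type and less RNA per cell cannot be told apart.

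Histones package DNA: H2A, H2B, H3 and H4 form the core that DNA wraps around, and H1 binds the linker DNA between cores. Replication-dependent histone genes lie in clusters on chromosomes 6 and 1 and are transcribed mainly in S phase, when new chromatin is assembled. Their mRNAs lack introns and end in a conserved stem-loop, bound by SLBP, in place of a poly(A) tail, and they are degraded when replication stops. Many copies encode the same or nearly the same protein, so an array feature can read transcripts of several copies.

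The promoters of the genes with the feature of highest mean in their class, annotated pseudogenes aside, and of the divergent pairs described further on, are shown first because S phase transcription of these genes is set there. Of the 52 members, 46 had a promoter in the RefSeq-derived table (GRCh38.p14), each a window of 250 bases before to 50 after the start. The first 4 sequences below are the 120 bases before the start of HIST1H1E (chr6:26156209-26156328, plus strand), HIST1H2BM (chr6:27814902-27815021, plus strand), HIST1H3F (chr6:26250636-26250755, minus strand) and HIST1H4J (chr6:27823972-27824091, plus strand), written 5′ to 3′. The last 3 are the plus strand between the starts of HIST2H2BE and HIST2H2AC (chr1:149886683-149886917), of HIST1H2BL and HIST1H2AI (chr6:27807930-27808172) and of HIST1H2AK and HIST1H2BN (chr6:27838376-27838568). Capitals mark matches on either strand to TATAAA (the TATA box), to CCAAT (the box bound by NF-Y) and to ATTTGCAT (the octamer bound by OCT1), and in HIST1H1E also to AAACACA (the H1 box).
HIST1H1E: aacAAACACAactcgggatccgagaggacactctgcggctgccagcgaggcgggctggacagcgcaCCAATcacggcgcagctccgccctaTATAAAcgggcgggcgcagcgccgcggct
HIST1H2BM: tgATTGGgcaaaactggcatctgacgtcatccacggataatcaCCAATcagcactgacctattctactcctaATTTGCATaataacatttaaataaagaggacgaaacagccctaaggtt
HIST1H3F: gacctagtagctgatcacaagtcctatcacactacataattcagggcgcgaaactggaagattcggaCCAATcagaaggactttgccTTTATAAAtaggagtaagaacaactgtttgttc
HIST1H4J: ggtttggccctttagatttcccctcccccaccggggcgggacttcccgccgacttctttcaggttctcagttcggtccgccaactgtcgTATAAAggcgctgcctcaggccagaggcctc
HIST2H2BE to HIST2H2AC: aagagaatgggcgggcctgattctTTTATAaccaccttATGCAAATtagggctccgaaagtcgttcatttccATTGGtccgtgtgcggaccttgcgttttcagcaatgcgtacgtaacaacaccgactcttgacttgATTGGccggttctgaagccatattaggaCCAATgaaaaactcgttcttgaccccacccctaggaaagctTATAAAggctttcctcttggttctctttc
HIST1H2BL to HIST1H2AI: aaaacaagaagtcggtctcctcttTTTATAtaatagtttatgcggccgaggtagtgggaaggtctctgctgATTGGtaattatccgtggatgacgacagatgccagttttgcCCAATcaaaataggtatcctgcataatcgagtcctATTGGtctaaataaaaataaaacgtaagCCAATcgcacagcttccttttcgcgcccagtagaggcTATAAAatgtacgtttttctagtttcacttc
HIST1H2AK to HIST1H2BN: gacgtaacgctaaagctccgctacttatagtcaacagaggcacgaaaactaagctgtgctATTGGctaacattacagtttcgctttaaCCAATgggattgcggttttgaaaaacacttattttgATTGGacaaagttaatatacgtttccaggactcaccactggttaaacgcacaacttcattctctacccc

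The motifs followed the histone class. In the whole windows, on either strand, CCAAT was present in 6 of 6 H1, 12 of 12 H2A, 14 of 14 H2B and 9 of 9 H3 promoters but in 1 of 5 H4 promoters, that of HIST1H4L, against 39.7% of the 27305 genes with a promoter. The octamer was present in 9 of 12 H2A and 10 of 14 H2B promoters and in 0 of the H1, H3 and H4 promoters, against 2.19% of all genes. H2A and H2B windows of divergent pairs overlap, so those counts share sequence. AAACACA was found in 6 of 6 H1 promoters and in 1 of 12 H2A promoters, against 6.94% of all genes. TATAAA was found in 34 of 46 members, against 3819 of the 27305 genes. A match describes the letters in the window and does not show that a factor was bound.

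**Figure D1:**
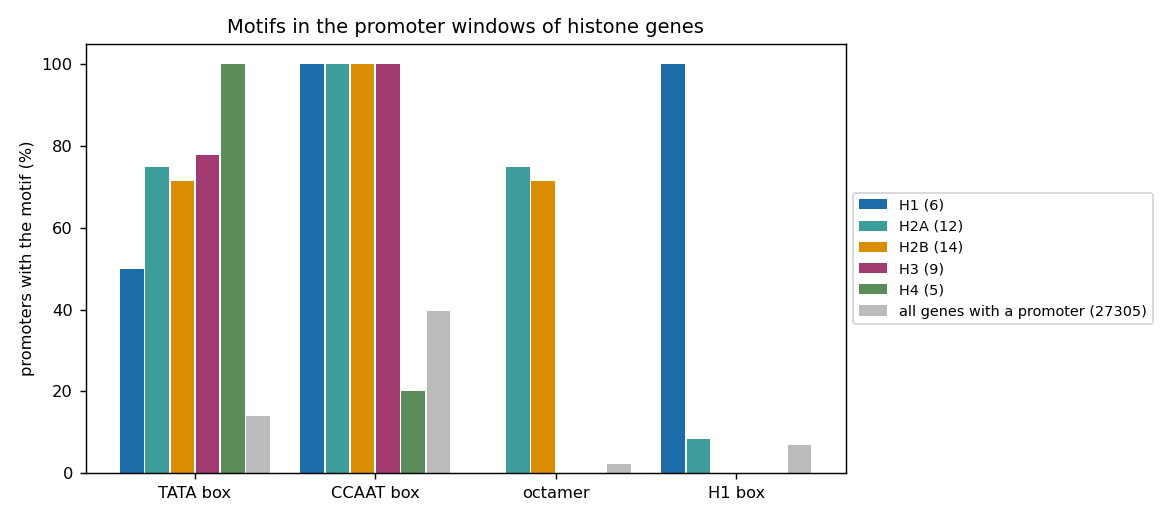
Bars give the percentage of promoter windows that hold each motif on either strand, for the 5 histone classes and for all genes with a promoter (numbers of genes in the legend). The H1 box stands at 100% in H1 genes, the octamer above 70% in H2A and H2B genes, and CCAAT in 1 of 5 H4 genes.

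Values below are log2 GCRMA values of 1 array feature per gene, and differences are knockdown minus control on that scale. The test was limma across all 12541 genes that were above a log2 value of 4 in at least 3 of the 6 arrays, with Benjamini-Hochberg adjustment over all of them and a threshold of 0.05. Detection was read against the 95th percentile of 3575 negative control features on the same array, which lay between 5.09 and 5.43 in knockdown tumours and between 5.12 and 5.90 in control tumours. PTPN11, the gene for the targeted phosphatase SHP2, was 6.71 ± 0.32 in knockdown and 8.76 ± 0.29 in control tumours (SD, n = 3 each), and its limma adjusted p was 0.034. That p was 0.084 with arrays centred, 0.079 with no filter, 0.077 after quantile normalization and 0.074 with the control feature contrast of each array, given next, as a covariate, and it stayed below 0.05 in 1 of the 6 fits that leave out 1 array, while the difference was between -2.30 and -1.86 in all of these fits and the others run. As a check of the tissue, S100B, SOX9 and AXL, genes expressed in melanoma lines, were among the 5 of 17 melanoma markers above the percentile in all 6 arrays. The pigment cell genes MITF, PMEL, MLANA, TYR, TYRP1 and DCT were above it in none. SOX10 was above it in 3 arrays, and MCAM, PRAME, NGFR, S100A1 and TFAP2A in none, so 11 of the 17 were never above it.

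The arrays differed in their control features. The median of the positive control features minus the median of the negative control features was taken for each array. It was 4.11, 4.44 and 4.47 in knockdown tumours 1 to 3, against 3.64, 4.19 and 4.39 in control tumours 1 to 3. Both arrays numbered 1 were the lowest of their group. In the paragraphs on the histone classes, some differences turned sign, or moved by several times their size, without control 1. The value without control 1 is then given beside the first. For the divergent pairs and the related lists, such values are not given gene by gene.

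No histone gene rose or fell past the threshold in knockdown tumours. Of the 52 members 30 passed the filter on low values, and 0 of these 30 had an adjusted p below 0.05 in limma (smallest adjusted p 1.00), against 0.00797% of all genes tested, which is PTPN11 alone. At an unadjusted p under 0.05 there were 2 members, HIST1H2AK and HIST1H2BL, both higher in knockdown tumours, against 2.54% of all genes in either direction and 1.35% higher in knockdown tumours. The groups did not overlap in 0 of the 30, against 6.67% of all genes tested in either direction and 3.86% higher in knockdown tumours. Among all 52 members the groups did not overlap in 2, against 7.28% of all 24494 genes. These were HIST1H2AH, with 1.85, 1.80 and 1.91 in knockdown tumours against 1.54, 1.31 and 1.71 in control tumours, and HIST1H2BD, with 3.94, 3.60 and 3.43 in knockdown tumours against 3.40, 3.29 and 3.22 in control tumours. Both were named after their values were seen, and neither exceeded the negative control percentile in any array. The count rests on the row chosen for each gene. HIST2H2BF overlapped in its chosen row, with a difference of -0.083, but not in a row of lower mean. That row had 2.40, 2.83 and 2.85 in knockdown tumours against 2.11, 2.14 and 2.10 in control tumours, below the percentile in all arrays. The standard errors of the 30 differences lay between 0.15 and 0.49, and their 95% intervals reached from -1.23 at the lowest to 1.26 at the highest, which limits what 3 arrays a group can show for single genes.

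The differences were mostly small and positive. Of all 52 members 37 were positive and 15 negative, 71.2% positive against 55.8% of all 24494 genes, with a median of 0.12 against 0.026. Among the 30 that passed the filter 24 were positive, with a median of 0.18, and across all 12541 genes tested the share was 62.0% and the median 0.053. Over all genes tested the share was 51.4% with arrays centred and 40.8% with the covariate described next. It rose with stricter filters, to 68.7% (median 0.082) at the negative control percentile and 69.6% (median 0.083) at a log2 value of 6. Under these 2 filters 19 of 21 and 15 of 17 members tested were positive, with medians of 0.20 and 0.18. The median over the 52 members was 0.039 without control 1, 0.046 without knockdown 2, 0.24 without control 3 and 0.25 without knockdown 1. It was 0.18 without both arrays numbered 1, 0.071 with each array centred on its median, and 0.0031 with the control feature contrast of each array as a covariate, where 26 members were positive and 26 negative.

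**Figure D2:**
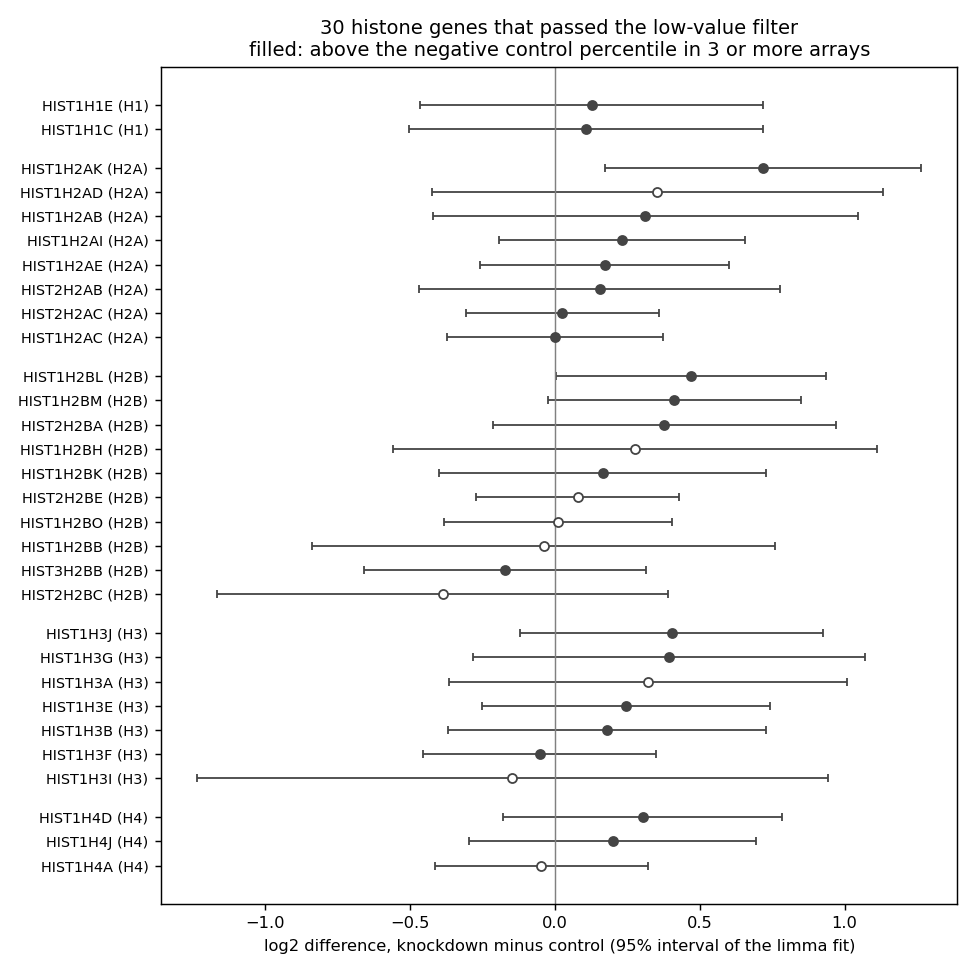
Points are log2 differences, knockdown minus control, of the 30 histone genes that passed the low-value filter, with 95% intervals of the limma fit, grouped by class. Filled points were above the negative control percentile in 3 or more arrays. The intervals of HIST1H2AK and HIST1H2BL lie above 0 before adjustment for the number of genes, and the largest spread is that of HIST1H3I.

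Of the 6 linker histone genes, HIST1H1E and HIST1H1C, which encode the somatic subtypes H1.4 and H1.2, were above the percentile in all 6 arrays. HIST1H1E had values of 8.63, 9.64 and 9.34 in knockdown tumours 1 to 3, against 8.79, 9.04 and 9.40 in control tumours 1 to 3. Knockdown 1 was the lowest of the 6 and knockdown 2 the highest, so the knockdown values enclosed the control values. The difference was 0.13 (SE 0.27, 95% interval -0.46 to 0.72). HIST1H1C was 7.25, 8.24 and 8.11 in knockdown tumours, against 7.47, 7.69 and 8.12 in control tumours. Knockdown tumours again held both the lowest and the highest value, with a difference of 0.11 (SE 0.27). Without control 1 the differences of HIST1H1E and HIST1H1C were -0.016 and -0.039. The median over the 6 H1 genes was 0.10, and it was -0.028 without control 1 and -0.11 with the control feature contrast as a covariate. The other H1 members stayed below the percentile in all arrays and did not pass the filter. Of these, HIST1H1A had the highest difference of the class (0.37) and HIST1H1D the lowest (-0.11). The testis-specific HIST1H1T was 1.38 ± 0.13 in knockdown and 1.46 ± 0.13 in control tumours.

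The 13 H2A differences had a median of 0.18 and ran between 0.0004 and 0.72, and 8 genes passed the filter. The median was between 0.029 and 0.33 with 1 array left out, and 0.0098 with the control feature contrast as a covariate. HIST1H2AK, which encodes a canonical H2A, had the smallest p of all histone members. Its values were 5.17, 5.58 and 5.37 in knockdown tumours, against 4.30, 4.44 and 5.22 in control tumours. Only control 3 reached into the knockdown range. The difference was 0.72 (SE 0.24, 95% interval 0.17 to 1.26, unadjusted p = 0.015, adjusted p = 1.00 in limma), and the feature was above the negative control percentile in 3 of 6 arrays. The difference was 1.00 without control 3, 0.54 without control 1 and 0.46 with the control feature contrast as a covariate, and the adjusted p over the alternatives that tested it ran between 0.41 and 1.00.

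The H2A features of highest value differed less. HIST2H2AC was 11.50, 11.62 and 11.41 in knockdown tumours, against 11.45, 11.52 and 11.49 in control tumours. All 6 values lay within a narrow band and the difference was 0.025 (SE 0.15, 95% interval -0.31 to 0.36), or 0.0071 without control 1. HIST2H2AB, also of the chromosome 1 cluster, was 9.05 ± 0.37 in knockdown and 8.90 ± 0.53 in control tumours, a difference of 0.15 that was -0.14 without control 1. HIST1H2AI was 8.46 ± 0.23 in knockdown and 8.22 ± 0.25 in control tumours, a difference of 0.23 (SE 0.19). HIST1H2AB spread most among these, with 6.54, 7.54 and 6.83 in knockdown tumours against 6.08, 6.58 and 7.31 in control tumours, and its difference of 0.31 was 0.026 without control 1. HIST1H2AC had the smallest difference of the class, 0.0004 (SE 0.17), which was -0.072 without control 1. HIST3H2A, the H2A gene of the third cluster, was not above the percentile in any array (1.22 ± 0.42 in knockdown and 1.04 ± 0.05 in control tumours).

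The 16 H2B differences had a median of 0.050, with 10 positive and 6 negative, and 10 genes passed the filter. HIST1H2BL had the largest difference. It was 5.74, 5.99 and 5.65 in knockdown tumours, against 5.04, 5.17 and 5.75 in control tumours. As with HIST1H2AK, control 3 alone lay within the knockdown range, and the difference was 0.47 (SE 0.21, 95% interval 0.0033 to 0.94, unadjusted p = 0.049, adjusted p = 1.00 in limma). It was 0.30 with the control feature contrast as a covariate, and the adjusted p over the alternatives that tested it ran between 0.63 and 1.00. HIST1H2BM was 9.49, 9.94 and 10.05 in knockdown tumours, against 9.17, 9.51 and 9.55 in control tumours. Knockdown 1 lay among the controls, and the difference of 0.41 (SE 0.19) had a 95% interval of -0.022 to 0.85. HIST1H2BK, whose mRNA can also be polyadenylated, was 6.37 ± 0.47 in knockdown and 6.21 ± 0.31 in control tumours, a difference of 0.17 that was 0.026 without control 1.

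The annotated H2B pseudogenes had differences of opposite sign with all 6 arrays and of the same sign without control 1. HIST2H2BA was 10.31 ± 0.40 in knockdown and 9.94 ± 0.46 in control tumours, a difference of 0.38 (SE 0.27) that was 0.12 without control 1 and 0.019 with the control feature contrast as a covariate. HIST2H2BC was 4.39, 4.12 and 4.38 in knockdown tumours, against 5.65, 4.35 and 4.05 in control tumours. Control 1 stood apart from the other 5 arrays, none of the 6 values was above the percentile of its array, and the difference of -0.39 was 0.096 without control 1. Leaving out both genes left the median of all members at 0.12. HIST3H2BB, the H2B gene of the third cluster, was 6.33 ± 0.38 in knockdown and 6.50 ± 0.23 in control tumours, with a difference of -0.17 (SE 0.22).

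Of the 11 H3 genes 7 were positive and 4 negative, with a median of 0.18, and 7 passed the filter. The median was between 0.017 and 0.31 with 1 array left out, and -0.013 with the control feature contrast as a covariate. HIST1H3F was 8.74, 9.03 and 8.94 in knockdown tumours, against 9.24, 8.74 and 8.89 in control tumours. Here control 1 held the highest value, unlike in most members, and the difference was -0.053 (SE 0.18), or 0.090 without control 1. HIST1H3G was 8.37, 8.86 and 8.61 in knockdown tumours, against 7.47, 8.40 and 8.79 in control tumours. Control 1 lay far below the other 5 values. The difference was 0.39 (SE 0.30) with all arrays, 0.017 without control 1 and 0.14 without both arrays numbered 1. HIST1H3J differed by 0.40 (SE 0.23) and HIST1H3B by 0.18 (SE 0.25), and without control 1 these were 0.21 and -0.045. HIST2H3D had the lowest difference of all members (-0.80) but did not pass the filter: it was 3.64, 3.93 and 3.24 in knockdown tumours, against 3.74, 4.15 and 5.32 in control tumours, and only control 3 was above its percentile. HIST1H3I, named after its values were seen for its wide interval, was 5.61, 3.62 and 3.67 in knockdown tumours, against 4.61, 4.91 and 3.82 in control tumours, so knockdown 1 stood apart. HIST3H3, a testis H3 gene, was 2.17 ± 0.38 in knockdown and 2.12 ± 0.13 in control tumours.

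The H4 genes encode the same protein, apart from the divergent HIST1H4G, and rows that list 14 of them together are described below. HIST1H4J was 10.55, 11.25 and 11.01 in knockdown tumours, against 10.45, 10.74 and 11.03 in control tumours. The groups overlapped, with a difference of 0.20 (SE 0.22, 95% interval -0.30 to 0.70), or 0.054 without control 1. A second HIST1H4J row gave 10.52, 11.28 and 11.11 in knockdown tumours, against 10.35, 10.70 and 11.05 in control tumours, the same order of arrays within each group. HIST1H4D, with the highest H4 difference, was 7.90 ± 0.15 in knockdown and 7.59 ± 0.41 in control tumours (difference 0.30, SE 0.22). Its difference was 0.074 without control 1, 0.16 without both arrays numbered 1 and 0.039 with the control feature contrast as a covariate. HIST1H4A was 5.24 ± 0.21 in knockdown and 5.29 ± 0.06 in control tumours, a difference of -0.046 that was -0.014 without control 1. HIST1H4B, below the percentile in all arrays, had the lowest difference (-0.40). Its values were 3.59, 4.05 and 3.35 in knockdown tumours, against 4.95, 3.64 and 3.58 in control tumours, and the difference was 0.052 without control 1, 0.089 without both arrays numbered 1 and 0.0084 with the control feature contrast as a covariate. The median over the 6 H4 genes was 0.0049, and between -0.096 and 0.10 with 1 array left out.

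**Figure D3:**
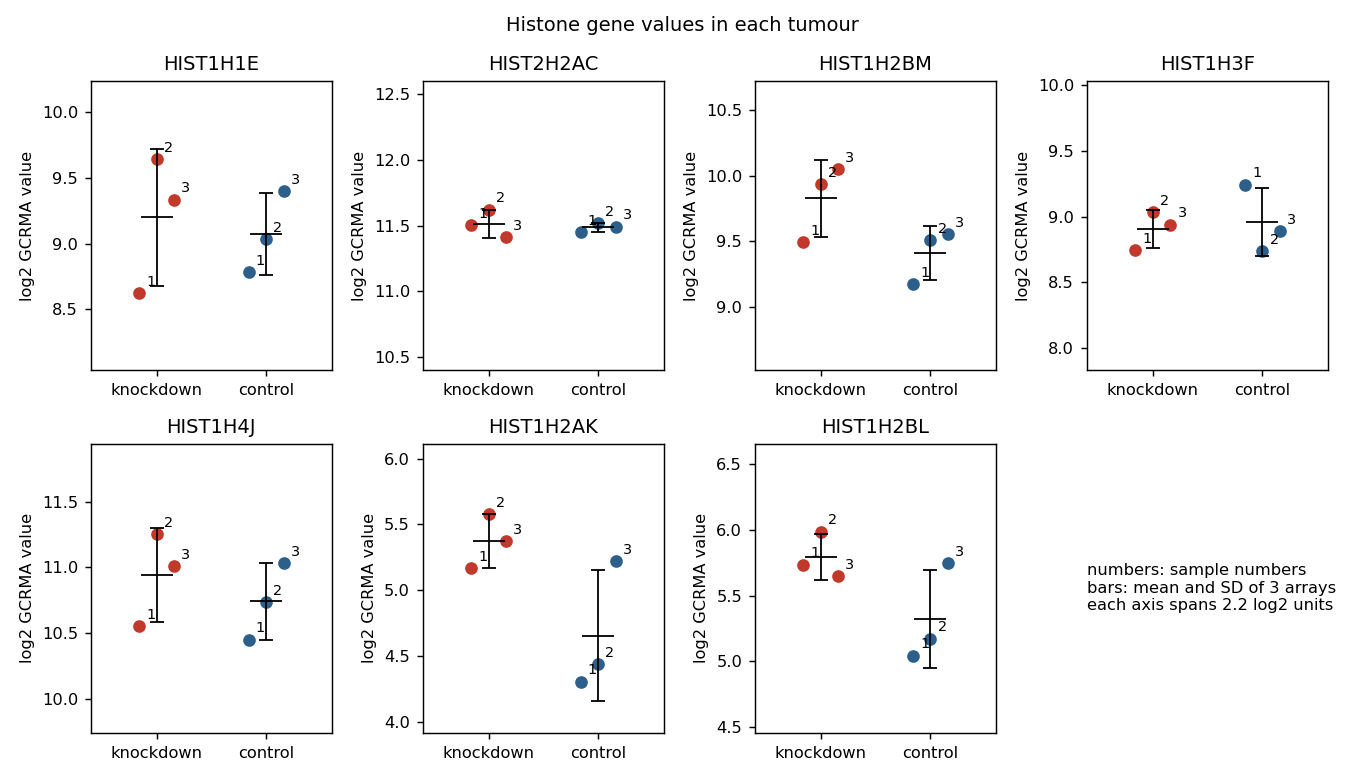
Each panel shows the log2 GCRMA values of 1 gene in the 3 knockdown tumours (left) and the 3 control tumours (right), with sample numbers and the mean and SD, for the feature of highest mean in each class, pseudogenes aside, and for the 2 genes of smallest p. The groups overlap in each panel, and in HIST1H2AK and HIST1H2BL control 3 alone reaches the knockdown values.

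Rows that list several histone genes were outside the comparison and were looked at separately. There were 18, of which 6 were above the percentile in all arrays, and these held 4 distinct sets of values because some rows repeat each other. A row for 14 H4 genes was 9.76 ± 0.0048 in knockdown and 9.74 ± 0.16 in control tumours, and another for the same 14 genes was 6.15 ± 0.11 in knockdown and 6.24 ± 0.12 in control tumours. The row for HIST2H2AA4 and HIST2H2AA3 was 9.55 ± 0.27 in knockdown and 9.24 ± 0.27 in control tumours. The row for HIST2H3D, HIST2H3A and HIST2H3C, whose difference was 0.21, went the other way from the row of HIST2H3D alone. None of the 8 such rows that passed the filter had an adjusted p below 0.05 in limma, where 16727 rows were tested singly, and 0 had an unadjusted p under 0.05.

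Many H2A and H2B genes are divergent neighbours that share the DNA between their starts, as in the 3 sequences printed in full. Among the members with a promoter there were 8 such pairs, with between 193 and 244 bases between the starts. In HIST1H2AI and HIST1H2BL the differences were 0.23 and 0.47, and both features were measured above the filter. In HIST2H2AC and HIST2H2BE they were 0.025 and 0.079, with HIST2H2BE below the percentile in all arrays. HIST1H2AJ and HIST1H2BM had differences of 0.27 and 0.41, and HIST1H2AK and HIST1H2BN of 0.72 and 0.20. HIST1H2AJ and HIST1H2BN did not pass the filter. The remaining pairs had differences of 0.17 and -0.036 (HIST1H2AE and HIST1H2BG), 0.068 and 0.011 (HIST1H2AM and HIST1H2BO), 0.070 and -0.14 (HIST1H2AA and HIST1H2BA) and 0.18 and -0.17 (HIST3H2A and HIST3H2BB), each with at least 1 gene below the filter.

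Over the 30 members that passed the filter, the median within-group SD was 0.37, against 0.23 over all genes tested, while the median size of the group difference was 0.19, against 0.12. The difference was larger than the within-group SD in 4 of the 30 members, against 2868 of all 12541 genes tested. Knockdown 1 was the lowest knockdown array in 21 of 30 members (70.0%, against 56.0% of all genes tested) and knockdown 2 the highest in 21 of 30 (70.0%, against 48.1%). Control 1 was the lowest control array in 23 of 30 (76.7%, against 61.5%) and control 3 the highest in 22 of 30 (73.3%, against 59.8%). Among the 14 members above the percentile in all 6 arrays, knockdown 1 and control 1 were the lowest of their groups in 13 each. The shares over all genes above the percentile in all 6 arrays were not computed, so these counts have no matched comparison. Genes are not independent replicates, so these counts describe the 6 arrays.

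The classes shared this order to different degrees. In the 8 H2A genes knockdown 2 was the highest knockdown array in 8 of 8 and control 1 the lowest control array in 8 of 8. Over all genes tested these arrays held those places in 48.1% and 61.5%. In the 10 H2B genes the same counts were 4 and 7. In the 7 H3 genes they were 6 and 4, and in the 3 H4 genes 1 and 2. Both H1 genes followed the order in full. The median deviation of the 30 members from their own means was -0.17, 0.39 and 0.071 in knockdown tumours 1 to 3, against -0.38, -0.060 and 0.18 in control tumours 1 to 3.

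**Figure D4:**
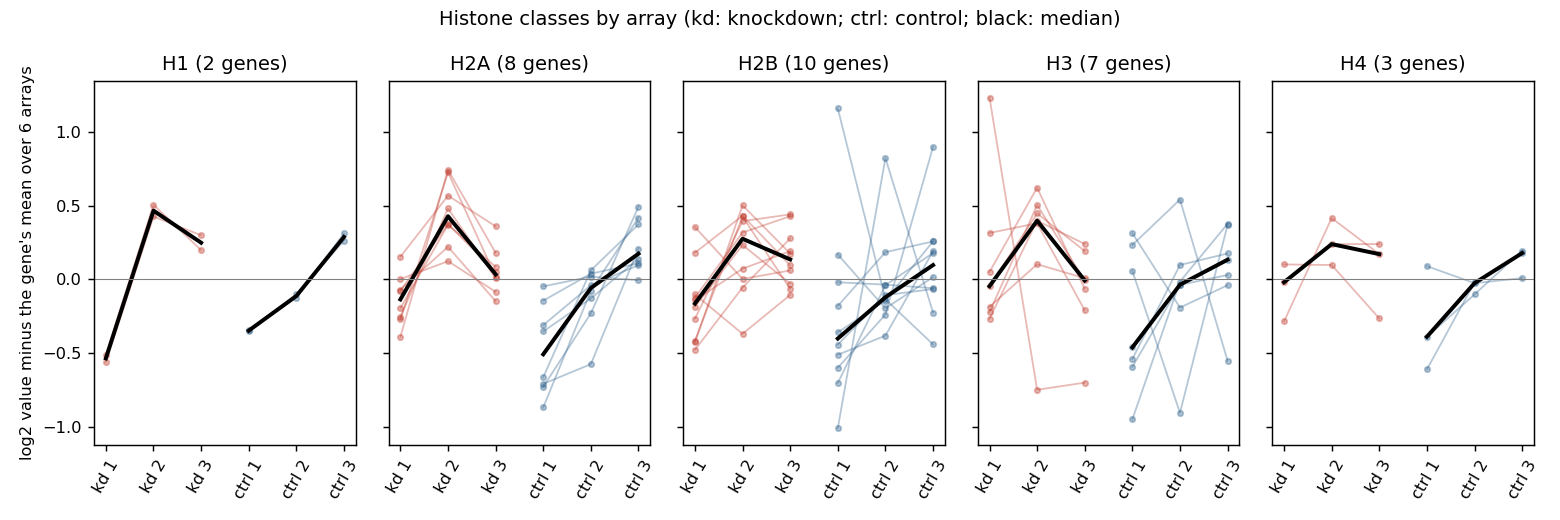
Coloured points are the log2 values of each histone gene that passed the filter, minus its mean over the 6 arrays, by class, with knockdown arrays left of control arrays; thin lines join the values of 1 gene within a group and the black line is the class median. The median of the 8 H2A genes is highest in knockdown 2 and lowest in control 1.

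Genes of S phase and DNA replication showed the same order of array medians. These lists were chosen with earlier results of these data known. Of 40 tested genes of S phase and DNA replication, 0 passed, 31 differences were positive and 9 negative, and the median over the 41 listed was 0.091. That median was -0.0090 without knockdown 2, 0.0022 without control 1 and -0.059 with the control feature contrast as a covariate. Their median deviations were -0.14, 0.26 and 0.059 in knockdown tumours 1 to 3, against -0.28, -0.069 and 0.17 in control tumours 1 to 3, which is the order found for the histone genes. DBF4, the activator of the replication kinase CDC7, was 6.59 ± 0.15 in knockdown and 6.05 ± 0.26 in control tumours. The phosphatase gene CDC25A differed by 0.39 (SE 0.15), the cyclin gene CCNE1 by 0.37 (SE 0.18) and the helicase subunit gene MCM5 by 0.47 (SE 0.25), with CDC25A below the percentile in all arrays. Histone chaperones, described below, had this order too, at -0.067, 0.25 and 0.0013 in knockdown tumours and -0.29, -0.050 and 0.15 in control tumours. Over all 12541 genes the deviations were smaller, at -0.064, 0.099 and 0.048 in knockdown tumours and -0.16, -0.0052 and 0.10 in control tumours. Their order within each group was the same, and over the 6 arrays only knockdown 2 and control 3 changed places. What produced the order, and the larger deviations in histone and S phase genes, was not tested. The part of the array control contrast in this order was not tested.

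**Figure D5:**
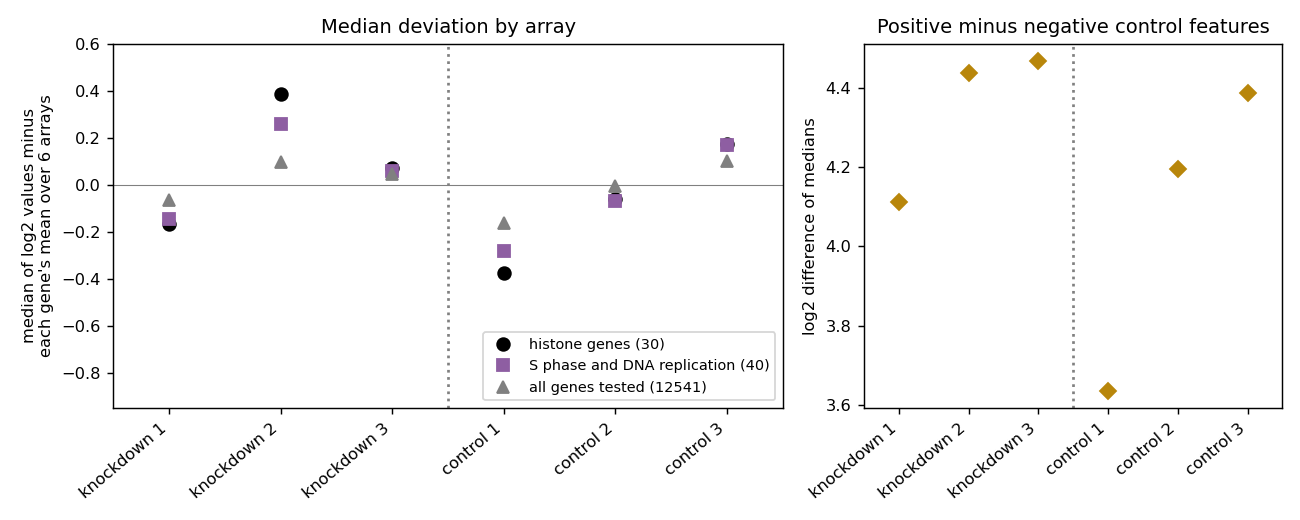
Left, the median over genes of the log2 value minus the gene's mean over 6 arrays, for 30 histone genes, 40 genes of S phase and DNA replication and all 12541 genes tested, in knockdown tumours and then control tumours. Right, the median of the positive control features minus the median of the negative control features of each array. Histone genes range from -0.38 in control 1 to 0.39 in knockdown 2, and the control contrast is lowest in control 1 at 3.64.

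No gene listed for the processing and turnover of histone mRNA passed the test. The list also holds genes not specific to these mRNAs, such as DBR1 and TRIM26, and its counts include them. Of 19 tested, 0 passed, and 15 differences were positive and 4 negative, against 62.0% positive over all genes tested. The median of the 22 genes listed there was 0.080. It was -0.016 without control 1 and -0.035 with the control feature contrast as a covariate. SLBP, which binds the stem-loop, had values of 8.17, 8.27 and 8.20 in knockdown tumours, against 7.53, 8.12 and 8.35 in control tumours, with a difference of 0.21 (SE 0.21). NPAT, the coactivator of histone transcription, was 6.18 ± 0.11 in knockdown and 6.18 ± 0.33 in control tumours; both are given for their roles, outside the rule for named genes. CSTF2, a cleavage factor subunit, differed by 0.38 (SE 0.19) and its paralogue CSTF2T by 0.31 (SE 0.25). The intron debranching enzyme DBR1 differed by 0.26 (SE 0.21) and the U7 snRNP subunit LSM10 by 0.21 (SE 0.18), the last below the percentile in all arrays. Control 1 held the lowest of the 6 values of SLBP, NPAT, CSTF2T and DBR1, but not of CSTF2 and LSM10.

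Histone chaperones, which carry histones to DNA, gave 17 positive and 5 negative differences among 22 tested genes, with 0 past the threshold. Over all genes tested 62.0% were positive. The median of the chaperones was 0.13, which was 0.0032 without control 1 and -0.014 with the control feature contrast as a covariate. ASF1B, a chaperone of H3 and H4, was 6.00 ± 0.40 in knockdown and 5.57 ± 0.34 in control tumours, and CHAF1A, a subunit of the assembly factor CAF-1, differed by 0.33 (SE 0.23). HIRA, which deposits H3.3, differed by 0.31 (SE 0.19), and NAP1L1, a chaperone of H2A and H2B that lay below the percentile in all arrays, by -0.38 (SE 0.20). Replication-independent histone variants gave 7 positive and 3 negative differences among 10 tested, against the same 62.0% over all genes, with 0 past the threshold. Their median was 0.071 over 17, which was 0.018 without control 1 and -0.028 with that covariate. The centromeric H3 gene CENPA differed by 0.25 (SE 0.17), the linker histone gene H1FX by 0.15 (SE 0.17), the macroH2A gene H2AFY2 by 0.14 (SE 0.25) and the H2A.Z gene H2AFZ by 0.089 (SE 0.17). The lowest of the 6 values was that of control 1 for ASF1B, CHAF1A, HIRA, CENPA, H1FX and H2AFY2, but not for NAP1L1 and H2AFZ.

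Most markers of other cells the tumour could hold were below the negative control percentile. Above the negative control percentile in all 6 arrays were 1 of 7 endothelial, 1 of 8 leukocyte and macrophage, 2 of 8 fibroblast and pericyte and 0 of 10 adipocyte, muscle and blood markers. Those above it were ENG, CD68, COL1A1 and PDGFRB. CDH5, PTPRC and DCN were above the percentile in none, and PTPRC and DCN are named outside the rule for named genes. Host cells of these xenografts are mouse cells, while the features carry human gene symbols. Whether the features read mouse transcripts was not tested, so low values do not show that host cells were few. CD68, a lysosomal protein listed here as a macrophage marker, was 7.71 ± 0.63 in knockdown and 7.30 ± 0.50 in control tumours. Knockdown 3 and control 3 were the highest of their groups and the 2 arrays numbered 1 the lowest. Which cells gave this signal was not tested. Heat shock and immediate early genes had a median difference of 0.13 over 12 genes. Whether these had a part in the histone values was not tested.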

How the data were processed

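Arrays of 6 tumours were compared, 3 with a hairpin against SHP2 and 3 with a non-target hairpin. The deposited values were made by the authors with GCRMA, per the submitters' processing notes, and are read as log2 because they run from 0.0493 to 13.3 and the base is not stated. The array design, the genome build of the features, the software version and whether labelling was primed from poly(A) tails could not be taken from the labels. The deposited table with annotation and the series value table are equal in every cell. The members and lists were chosen with earlier results of these data known.

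Rows with 1 symbol were used, the row of highest mean stood for a gene, and genes above a log2 value of 4 in at least 3 of 6 arrays were tested, 12541 in all. limma 3.58.1 in R 4.3.3 (lmFit and eBayes, no trend) compared knockdown with control, two-sided, with Benjamini-Hochberg adjustment. Its code was tested on simulated data. Named in each class are genes past the threshold, the 4 of highest mean and the 2 of smallest p. Those of highest and lowest difference, and HIST3 members, are also named. From related lists the 4 of smallest p are named, and from marker lists up to 3 of highest mean. The number of arrays limits the precision. Promoters are those of RefSeq in GRCh38.p14, and all 52 members matched a RefSeq gene by transcript accession or, failing that, by symbol or synonym. Same-numbered samples were not paired, because the labels give them only a number in common. Their deviations from the group means correlated at 0.42, -0.034 and 0.17 for numbers 1 to 3. Between different numbers the correlations ran from -0.43 to 0.33. These values do not settle whether samples of 1 number share a batch. The alternatives were 2 other low-value filters, 2 other rows per gene, the series value table, 2 normalizations, 2 variance models, a block for the sample number and leaving out each array; a fit without both arrays numbered 1, a filter at the negative control percentile, a covariate for the control feature contrast and leaving out the annotated pseudogenes were added after the data were seen.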

Additional observations from a re-analysis of the deposited data

How the results depend on the processing

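The count of histone genes past the threshold was 0 in each direction under all alternatives that refit the data, and the counts of the 4 related lists were 0 as well; at an unadjusted p under 0.05 the count of histone genes ran between 0 and 5, the highest with the replicate block, where the smallest adjusted p was 0.41 and 5 genes of all tested passed. The samples share only a number, and the block moved no histone gene past the threshold. PTPN11 kept its direction, between -2.30 and -1.86, and its limma adjusted p was 0.084 with arrays centred (-2.10), 0.074 with the covariate (-2.16), 0.079 with no filter (-2.05) and 0.077 after quantile normalization (-2.09); with 1 array left out the difference ran between -2.19 and -1.86, and only the fit without control 1 stayed past the threshold. The H1 median ran between -0.069 and 0.29, the H2A median between 0.029 and 0.33, the H2B median between 0.044 and 0.18, the H3 median between 0.017 and 0.31 and the H4 median between -0.096 and 0.10 with 1 array left out, and with the covariate the H1 median was -0.11, the H2A median 0.0098 and the H3 median -0.013; the H4 median was -0.042 with arrays centred and -0.020 with array weights. The medians of the related lists turned sign with the covariate, to -0.059 for S phase, -0.035 for mRNA processing, -0.014 for chaperones and -0.028 for variants. Signs turned with the control contrast as a covariate for HIST1H1C (-0.20), HIST1H1E (-0.16), HIST1H2AB (-0.092), HIST1H2AC (-0.083), HIST1H2BK (-0.11), HIST1H3B (-0.10), HIST1H3F (0.031), HIST1H3G (-0.032), HIST1H4A (0.015), HIST1H4B (0.0084), HIST1H4J (-0.042), HIST2H2AB (-0.21), HIST2H2BC (0.094) and HIST3H3 (-0.0040). They turned without both arrays numbered 1 for HIST1H2AC (-0.037), HIST1H3F (0.17), HIST1H4B (0.089) and HIST2H2BC (0.050), with array weights for HIST1H2AC (-0.035) and HIST1H3F (0.029), with arrays centred for HIST1H2AC (-0.046) and HIST2H2AC (-0.022), and after quantile normalization for HIST1H2AC (-0.022). With 1 array left out, differences crossed 0 for HIST1H1C (-0.078 to 0.42), HIST1H1E (-0.093 to 0.41), HIST1H2AC (-0.11 to 0.075), HIST1H2BK (-0.044 to 0.42), HIST1H3B (-0.045 to 0.34), HIST1H3F (-0.16 to 0.090), HIST1H4A (-0.11 to 0.075), HIST1H4B (-0.64 to 0.052), HIST2H2AB (-0.14 to 0.38), HIST2H2AC (-0.030 to 0.074), HIST2H2BC (-0.70 to 0.096), HIST3H2A (-0.053 to 0.36), HIST3H2BB (-0.35 to 0.024) and HIST3H3 (-0.13 to 0.25). The cause was not tested. None of these genes passed the threshold under any setting. Centring the arrays moved the share of positive differences among all genes tested to 51.4%, the covariate to 40.8%, and leaving out control 1 to 46.3%, against 62.0% as reported. The count of all genes past the threshold, 1 as reported, was 2 without both arrays numbered 1 and 0 with arrays centred, with the covariate, with no filter and after quantile normalization.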
